A study of Homo sapiens with 8 samples.

Results

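The nuclear receptor genes, 46 of the 20162 protein-coding genes of the annotation, were followed through peak lists of LX-2 cells made by ATAC-seq, in which a transposase cuts and tags open chromatin. The members were taken by gene family and not by their values, and peaks were assigned to a gene when they lay in its body or within 10 kb on either side. LX-2 is an immortalised human line derived from hepatic stellate cells, the vitamin A-storing cells of the liver that turn into matrix-producing myofibroblasts in fibrosis. Wild-type cells were grown on fibronectin-coated polyacrylamide hydrogel of about 2 kPa (soft) or 40 kPa (stiff) and collected on day 2 (D2) or day 4 (D4). Matrix and day gave 4 groups with 2 replicate libraries each, and the labels named no other treatment. All libraries came from 1 line. The study's methods call its sequencing replicates biological, and the labels do not say how they were separated, so p-values measure the spread between these libraries.

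Nuclear receptors are transcription factors, many of which switch genes on or off when a small fat-soluble ligand such as a steroid, retinoic acid, vitamin D or a bile acid enters their binding pocket. Many members bind DNA as partners of a retinoid X receptor (RXR) at repeats of a short half-site, and recruit coactivators or corepressors depending on the ligand. In stellate cells the vitamin D receptor, PPARgamma, the bile acid receptor FXR and the retinoic acid receptors are known as brakes on fibrotic activation.

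The 8 lists held between 29789 and 72840 peaks, and D2 soft replicate 1 was the shortest, the next holding 55754. Peak heights can be compared within a list only, so the strength of a peak is given as its rank by −log10 p in per cent of its list, where a low value is a strong peak. Values are also given after each list was cut to its 29789 strongest peaks (lists of equal length). Of 14 stellate or mesenchymal markers, 7 had a promoter peak in every library, COL1A1, ACTA2 and PDGFRB among them, beside 47.5% of all protein-coding genes. COL3A1 and COL6A3 had one in 2 libraries, LRAT in 1 and DES in none. The promoters of 5 of 8 hepatocyte genes, among them ALB, had no peak in any library, as did 3 of 4 endothelial and 3 of 5 immune genes. Over all genes this share was 26.8%. Markers of other cell types were not all closed, since CPS1 (hepatocyte) and CD68 (immune) were occupied in 8 libraries and CSF1R (immune) in 7. Of 5 cholangiocyte or epithelial genes, KRT7 had a promoter peak in 8 libraries, SOX9 in 7, EPCAM in 6 and CDH1 in 5, and KRT19 in none.

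A promoter was called occupied when a peak lay within 1 kb of any annotated start of the gene. By that measure 18 of the 46 genes (39.1%) had a promoter peak in every library, beside 47.5% of all protein-coding genes. Without D2 soft replicate 1 it was 29 genes (63%) beside 58.8%. In the lists as deposited, whether the receptors lay below or above all genes thus turned on that library. A further 22 (47.8%, background 25.7%) had one in 1 to 7 libraries, and 6 (13%, background 26.8%) had none. The share of occupied promoters is shown per library in the plot of promoters, and for the nuclear receptors it ran from 19 genes (41.3%) in D2 soft replicate 1 to 38 (82.6%) in D4 stiff replicate 2. For all genes it ran from 49.0% to 69.1%. With lists of equal length the receptors ran from 19 to 25 genes, and 13 genes (28.3%, background 34.9%) were occupied in every library, 17 (37%, background 39.2%) in none and 16 (34.8%, background 25.9%) in 1 to 7.

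**Figure D1:**
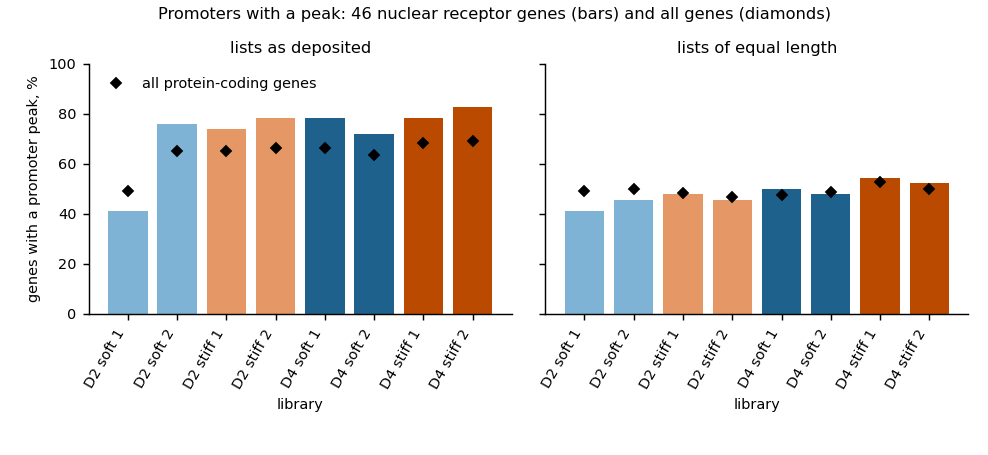
Share of promoters with a peak within 1 kb of a start (y axis, per cent of genes) in each library (x axis), for the 46 nuclear receptor genes (bars, coloured by group) and all 20162 protein-coding genes (diamonds). On the left, lists as deposited, the bar of D2 soft replicate 1 (41.3%) lies below all others; on the right, with lists of equal length, the bars lie between 19 and 25 genes.

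Among the receptors for thyroid hormone and retinoic acid, all 5 genes had promoter peaks in at least some libraries. THRB, RARA and RARG were occupied in every library, RARB in every library but D2 soft replicate 1, and THRA in 5. RARB, whose product mediates and is itself induced by retinoic acid, spans chr3:24729378-25639423 (hg19) and had among the strongest and most numerous peaks of the family. With both D2 soft libraries first, then D2 stiff, D4 soft and D4 stiff, and replicate 1 before replicate 2 in each (the order of all such lists), it held 5, 12, 13, 17, 13, 13, 17 and 19 peaks. The stiff libraries lay at the upper end, but the highest soft and the lowest stiff count met at 13. The mean was 16.5 ± 2.52 on stiff and 10.8 ± 3.86 on soft matrix (SD, n = 4 libraries each; exact two-sided permutation test, p = 0.0857, adjusted p = 1). Its best peak stood between 0.534% and 5.84% of the lists, in 6 libraries at 1 intronic site, chr3:25623361-25624196. THRB held 7, 14, 17, 16, 14, 11, 13 and 14 peaks, with the lowest count again in D2 soft replicate 1. Its best peak stood between 1.19% and 6.49% of the lists, in 5 libraries at the intronic site chr3:24197817-24198534.

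Of the 11 genes for lipid, vitamin D and xenobiotic sensors and the HNF4 factors, 4 had a promoter peak in every library, 5 in some and 2 in none. VDR, the vitamin D receptor, had the best median standing of all members and the highest-ranked member peak in 4 of the 8 libraries, at chr12:48275422-48276228 (hg19), 969 bp from its nearest annotated start. That peak stood at 3.64%, 1.02%, 1.84%, 0.922%, 0.596%, 1.28%, 0.499% and 0.999% of the 8 lists, with a fold enrichment over the local background of 11.2 to 17.4. The weakest standing was that of D2 soft replicate 1, and the soft and stiff ranges overlapped. PPARG, the master gene of fat-storing cells, had its best peak in every library at one site, chr3:12447208-12447821, within 1 kb of an inner start. It stood at 25.2%, 4.73%, 7.85%, 0.773%, 2.25%, 7.02%, 3.05% and 1.06% of the lists, and soft and stiff values overlapped. The best peak of PPARD, a regulator of fatty acid use, stood between 2.06% and 8.57%, in 7 libraries at an intronic site. NR1H2 and NR1H3, the LXR oxysterol receptors, were occupied at the promoter in every library, and PPARA and NR1H4 (FXR) in every library but D2 soft replicate 1.

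Several other genes typical of hepatocytes were occupied in fewer libraries than PPARA and NR1H4. NR1I2 (PXR) had a promoter peak only in D4 stiff replicate 2, and HNF4G in 5 libraries. NR1I3 (CAR), HNF4A, the hepatocyte master factor, and NR0B2 (SHP), the bile acid-induced repressor, had no promoter peak in any library but peaks elsewhere. The strongest NR1I3 peak in 7 libraries lay within 1 kb of a start of the neighbouring gene TOMM40L, and 1 of the 2 NR0B2 sites lay within 1 kb of a start of NUDC. NR2E3, the photoreceptor orphan receptor, likewise had no promoter peak, but a site 1281 bp from its start stood between 2.49% and 14.7% of every list. NR5A1 (SF-1), the steroidogenic factor, had 1 peak in D4 soft replicate 2 alone. NR0B1 (DAX1) had no peak in any library, which for a peak list says only that none passed the caller's threshold.

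**Figure D2:**
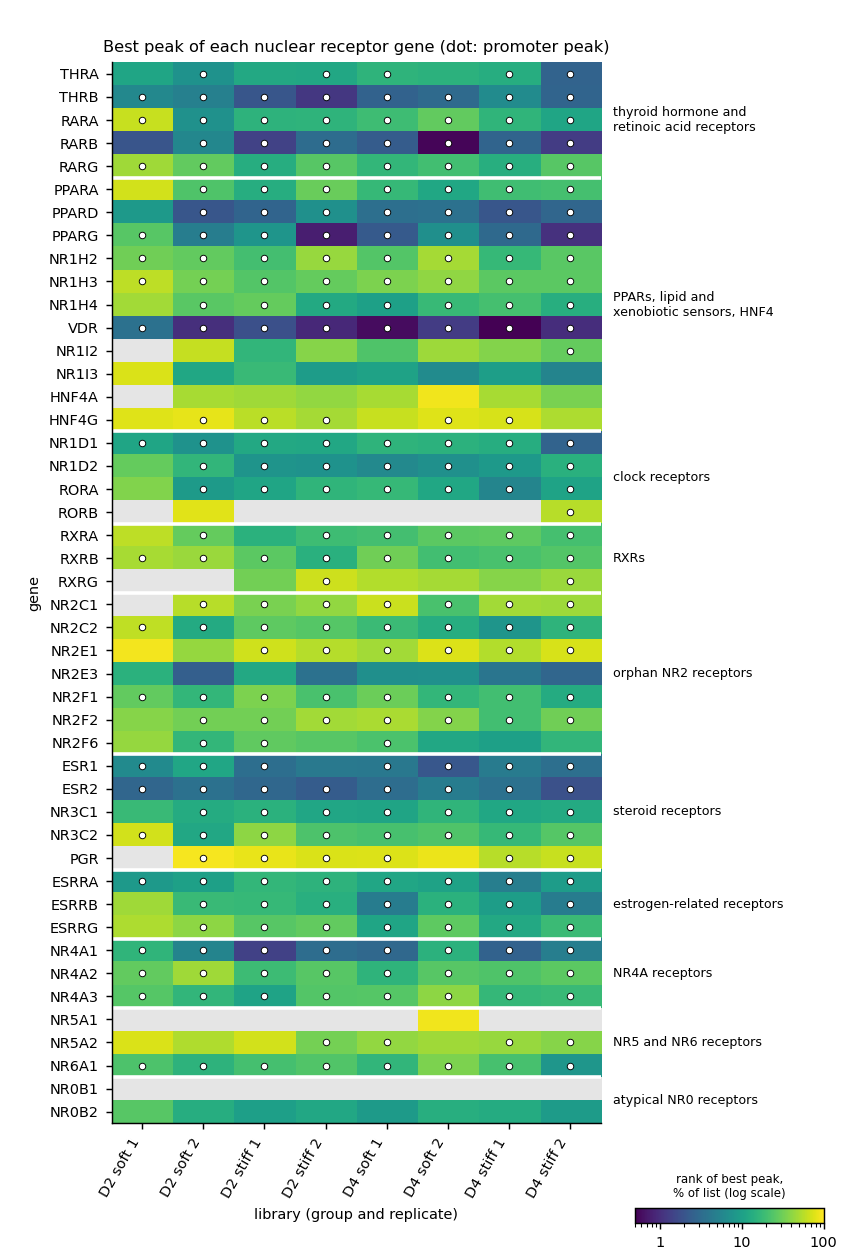
Standing of the best peak of each of the 46 genes (rows, by role) in each library (columns), as rank in per cent of the list on a log colour scale, with dark cells for strong peaks and grey cells for no peak. White dots mark a promoter peak; VDR is dark throughout (0.499% to 3.64%), and the NR0B1 row is grey.

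The sites below are the best-ranked peaks present in every library for 4 of these genes, shown as examples from the 5 genes with the best median standing, VDR, RARB, THRB, ESR2 and PPARD. Each is the 201 bp around the summit on the plus strand of GRCh37 (hg19), in 5′ to 3′ order and free of annotated exons. Capitals mark matches, on either strand, to the nuclear receptor half-site AGGTCA, the NR4A element AAAGGTCA (which contains the half-site), AP-1 (TGACTCA or TGAGTCA), CRE (TGACGTCA), TEAD (GGAATG) or the GC box (GGGCGG).
VDR site, chr12:48275649-48275849: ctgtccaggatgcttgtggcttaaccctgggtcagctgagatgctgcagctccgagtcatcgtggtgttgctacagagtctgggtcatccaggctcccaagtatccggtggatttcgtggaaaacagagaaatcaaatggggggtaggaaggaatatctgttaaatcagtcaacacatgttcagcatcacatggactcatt
RARB site, chr3:25623726-25623926: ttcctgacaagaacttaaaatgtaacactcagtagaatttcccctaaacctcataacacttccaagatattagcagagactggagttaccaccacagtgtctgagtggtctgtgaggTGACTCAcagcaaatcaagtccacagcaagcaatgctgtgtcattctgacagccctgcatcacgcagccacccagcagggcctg
THRB site, chr3:24198093-24198293: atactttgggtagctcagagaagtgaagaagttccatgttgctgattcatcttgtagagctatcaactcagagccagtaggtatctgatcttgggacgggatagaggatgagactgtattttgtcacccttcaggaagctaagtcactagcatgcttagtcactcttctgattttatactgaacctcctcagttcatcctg
PPARD site, chr6:35338235-35338435: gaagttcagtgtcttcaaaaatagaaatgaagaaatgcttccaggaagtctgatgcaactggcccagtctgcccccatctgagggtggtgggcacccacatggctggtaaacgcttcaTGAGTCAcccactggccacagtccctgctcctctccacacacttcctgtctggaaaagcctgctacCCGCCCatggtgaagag
The RARB and PPARD windows each held an AP-1 match close to the summit, 17 bp and 18 bp after it, and PPARD also held a GC box 84 bp after it. None of these letters occurred in the VDR and THRB windows, which says nothing about binding there. Over all 280 sites near the members, an AP-1 match occurred in 27.5%, beside 30.2% of all 75501 sites seen in at least 2 libraries. The half-site occurred in 12.5% beside 13.5%, the NR4A element in 0.714% beside 1.13%, TEAD in 18.2% beside 19.1% and the GC box in 23.6% beside 16.2%. The CRE match occurred in 6 sites (2.14% beside 0.608%), at RARB, RORA, VDR, NR2F1, NR4A1 and NR6A1, of which only the NR6A1 site was a promoter. Among sites away from promoters the AP-1 share was 35.8% in both sets. The GC box share was 49.4% beside 48.8% at promoter sites, and 11.9% beside 6.73% away from promoters. Promoter sites, here those within 1 kb of a start of any protein-coding gene, made up 87 of the 280 sites near members and 16930 of all 75501 sites. Of the 87, 68 lay at a promoter of a member itself and 19 at that of another gene only.

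The clock receptors differed among themselves. NR1D1 (REV-ERBalpha) was occupied in every library, NR1D2 (REV-ERBbeta) and RORA in every library but D2 soft replicate 1, and RORB only in D4 stiff replicate 2. NR1D1 and THRA overlap tail to tail and shared 2 sites, so that their best peaks were the same peak. RORA, an activator of the core clock with a body of 741 kb, had the most peaks of all members, 9, 23, 16, 24, 19, 18, 24 and 29. The lowest count was again that of D2 soft replicate 1, and soft and stiff counts overlapped. The strongest RORA peak in 6 libraries lay in the 10 kb flank, at a site within 1 kb of a start of ICE2. The members were long genes, with a median span of 53.6 kb against 27.2 kb over all genes, and their median mean peak number was 3.69 against 2.13 for all genes with a peak.

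Occupancy varied among the RXRs and the orphan NR2 receptors, with 1 of 3 and 2 of 7 genes occupied in every library (background 47.5%). RXRB was occupied in every library, RXRA in 6 and RXRG in 2. Of the orphan NR2 genes, NR2C2 (TR4) and NR2F1 (COUP-TFI) were occupied in every library, NR2C1 and NR2F2 (COUP-TFII) in every library but D2 soft replicate 1, NR2E1 in 6 and NR2F6 in 3. NR2E1 had a promoter peak in all 4 stiff but only 2 soft libraries. NR2F6 and ESR1 were the 2 genes occupied in fewer stiff than soft libraries. With lists of equal length RXRA, RXRG, NR2E1, NR2E3 and NR2F6 had a promoter peak in no library, as did 39.2% of all genes.

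Among the steroid receptors, ESR2 and NR3C2 (the mineralocorticoid receptor) were occupied in every library, NR3C1 (the glucocorticoid receptor) in every library but D2 soft replicate 1, ESR1 in 7 and PGR in 6. The best ESR1 peak was the same intronic site, chr6:152237692-152238531, in all 8 libraries, between 2.09% and 11.4% of the list. The best ESR2 peak stood between 1.87% and 4.59%, also at 1 site, the promoter site chr14:64804608-64805953. PGR had the weakest best peaks of the class, between 56.4% and 92.4% of the lists that held one. Of the estrogen-related receptors, orphan regulators of mitochondrial genes, ESRRA was occupied in every library, ESRRB and ESRRG in every library but D2 soft replicate 1.

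The 3 NR4A genes, ligand-independent receptors that are induced within minutes of many stimuli, were occupied in every library, with lists of equal length too. NR4A1 had its best peak between 1.40% and 15.9% of the lists, in 6 libraries at a flanking site within 1 kb of a start of ATG101. NR6A1, a germ cell receptor, was occupied in every library and held 6, 11, 12, 13, 12, 14, 14 and 15 peaks. NR5A2 (LRH-1), an activator of bile acid synthesis genes, had a promoter peak in 3 stiff libraries and 1 soft library.

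To compare stiff with soft matrix, promoters, peak numbers and peak ranks were examined in turn. On average 36 of the 46 promoters were occupied on stiff and 30.8 on soft matrix, a difference of 5.25 genes, where the pooled SD within groups was 5.84. Without D2 soft replicate 1 the difference was 1.33 genes, and with lists of equal length it was 1.75. No promoter was occupied in every stiff and no soft library (0 of 46, background 0.198%) or in every soft and no stiff library (background 0.00496%), and with lists of equal length there was none of either kind (background 0.0645% and 0.0446%). A promoter peak was found in more stiff than soft libraries for 19 genes (41.3%, background 21%), and 11 genes of the family (23.9%, background 11.2%) lacked it in D2 soft replicate 1 alone, 2 genes (4.35%, background 2.4%) with lists of equal length. With lists of equal length the counts were 10 genes (21.7%, background 11.4%) in more stiff libraries and 5 (10.9%, background 9.75%) in fewer. D2 soft replicate 1 had the shortest list as well as the fewest promoters, and the 11 genes were occupied in the other soft libraries.

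Peak numbers were compared next. The 8 lists held 103, 211, 214, 239, 225, 204, 250 and 258 peaks at the members, a mean of 240.2 on stiff and 185.8 on soft matrix. Per 10000 peaks of the list the means were 36.7 and 36.0, a difference of 0.702 with a pooled SD of 1.56. No gene had more peaks in every stiff than in every soft library (0 of 45 genes with a peak, background 2.55%), although the stiff mean was higher for 38 (84.4%, background 71.7%) and lower for 3 (6.67%, background 9.56%), RORB, NR2F2 and NR5A1. HNF4A came closest, with 0, 3, 3 and 4 peaks on soft and 4, 5, 5 and 6 on stiff matrix, which met at 4. In the exact permutation test HNF4A gave p = 0.0571 and adjusted p = 1, where 4 against 4 libraries cannot go below 0.0286. With lists of equal length the stiff mean was higher for 22 genes (48.9%, background 30.7%) and lower for 13 (28.9%, background 26.7%). With those lists 2 genes, PPARD and NR1H4, did separate (4.44%, background 0.351%), and 0 the other way (background 0.225%). PPARD then held 3, 4, 4 and 4 peaks on soft and 5 in each stiff library, and NR1H4 held 2 in each soft and 3 in each stiff library, a gap of a single peak in both genes. In the lists as deposited the members had a median mean peak number of 3.69, beside 2.13 for all genes with a peak. The part of that difference in the shares with a higher or lower mean was not tested, here or for D4 against D2.

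**Figure D3:**
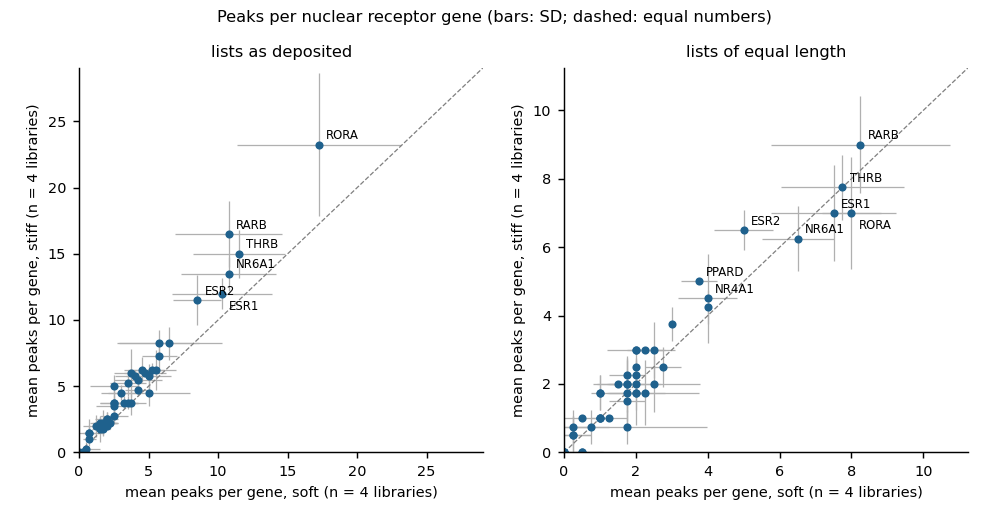
Mean number of peaks per nuclear receptor gene on stiff (y axis) against soft matrix (x axis), with the SD over 4 libraries, for lists as deposited (left) and of equal length (right); the dashed line marks equal numbers. Most points lie above the line on the left (38 genes with a higher stiff mean, 3 with a lower one), fewer on the right (22 and 13).

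Ranks were tested with limma on the normal score of each gene's best peak, over 13788 genes with a peak in every library, 38 members among them. These 38 were selected for having a peak everywhere, so they leave out the genes with the emptiest lists. For stiff against soft 0 of 38 members passed an adjusted p of 0.05, as did 0 of all 13788 genes (0%), and at an unadjusted p under 0.05 there were 0 members beside 970 genes (7.04%). The median difference was -0.01 for the members and -0.01 for all genes. The largest differences were those of PPARG (0.49 ± 0.31 SE, limma adjusted p = 0.766) and NR4A1 (0.49 ± 0.29 SE, adjusted p = 0.751), both higher on stiff matrix and neither past the threshold. The strongest NR4A1 peak lay near a start of ATG101 in most libraries. With peaks of the gene body alone the NR4A1 difference was 0.61 (limma adjusted p = 0.680). Leaving out 1 library moved PPARG between 0.16 (without D2 stiff replicate 2) and 0.82 (without D2 stiff replicate 1), and NR4A1 between 0.22 (without D4 soft replicate 2) and 0.76 (without D4 soft replicate 1). NR2E1 (-0.42 ± 0.30 SE), NR2F1 (-0.27 ± 0.28 SE) and NR3C2 (-0.27 ± 0.30 SE) followed in the other direction, none past the threshold. Over libraries left out, NR2E1 ran from -0.63 to -0.19 and NR2F1 from -0.45 to -0.09, and NR3C2 reached 0.0783 without D2 soft replicate 2. Within D2 and within D4, no member passed at an unadjusted p under 0.05 for stiff against soft, beside 8.55% and 6.53% of all genes, and 0 of all genes (0%) passed after adjustment.

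**Figure D4:**
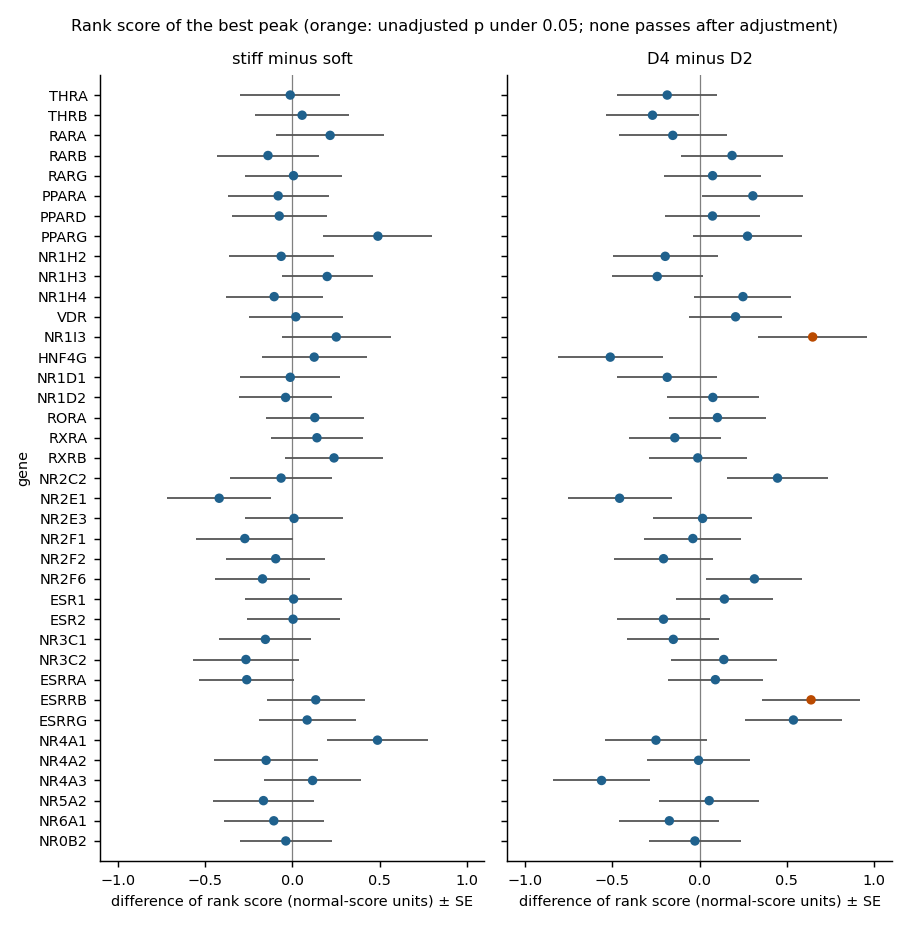
Difference of the rank score of the best peak (x axis, normal-score units, ± SE) for the 38 genes with a peak in every library (y axis, by role), stiff minus soft on the left and D4 minus D2 on the right, from limma over 13788 genes. Orange points, NR1I3 and ESRRB on the right, had an unadjusted p under 0.05, and none passed after adjustment.

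Single sites were compared in the same way over 24246 sites with a peak in every library, 82 of them near a member. For stiff against soft 0 of these 82 passed the adjusted threshold, beside 2 of all sites (0.00825%), and 2 (2.44%, background 7.88%) had an unadjusted p under 0.05. These were an intronic NR1H4 site (chr12:100874517-100875452) and an intronic THRB site (chr3:24360047-24360609). The NR1H4 site stood at 77.2%, 74%, 82.2% and 91.9% of the soft and 56.2%, 32.8%, 40.2% and 39.8% of the stiff lists, so that every stiff library ranked it higher. Its rank score was 1.15 ± 0.29 (SE) higher on stiff matrix (limma adjusted p = 0.322). The THRB site stood at 91.7%, 34.6%, 22.9% and 27.2% of the soft and 9%, 6.75%, 6.71% and 16.7% of the stiff lists, again without overlap. Its difference was 1.28 ± 0.33 (SE; limma adjusted p = 0.333). Both sites were picked by their p for this comparison, and the share of all sites without such overlap was not counted. Without D2 soft replicate 2 the difference at the THRB site was 1.63. That fit leaves D2 soft replicate 1, where the site stood at 91.7%, as the only D2 soft library. Within D2, 8 of the 82 sites had an unadjusted p under 0.05 for stiff against soft (9.76%, background 8.71%), and within D4, 6 (7.32%, background 5.92%), with 0 past adjustment among members or all sites (0%). The difference between days in the effect of the matrix (interaction) had an unadjusted p under 0.05 at 14 of the 82 sites (17.1%, background 6.32%), with an adjusted p of 0.785 at each, and at the NR1D2 gene alone in the gene fit (2.63%, background 7.88%). The windows of the NR1H4 site and this THRB site are given here in the same form and hold none of the motifs searched.
NR1H4 site, chr12:100874848-100875048: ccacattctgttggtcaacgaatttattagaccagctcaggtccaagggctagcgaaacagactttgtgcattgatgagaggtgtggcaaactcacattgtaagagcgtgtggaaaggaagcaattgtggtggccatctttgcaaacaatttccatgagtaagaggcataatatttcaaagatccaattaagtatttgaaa
THRB second site, chr3:24360236-24360436: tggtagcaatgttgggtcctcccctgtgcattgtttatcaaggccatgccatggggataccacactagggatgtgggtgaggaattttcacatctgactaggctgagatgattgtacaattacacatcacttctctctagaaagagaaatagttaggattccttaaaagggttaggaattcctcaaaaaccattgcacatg

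Presence of a peak singled out few sites. Of the 280 sites near members, 4 (1.43%, background 0.85%) had a peak in every stiff and no soft library, and 0 (background 0.0172%) the reverse. They lay in introns of RARB, HNF4A and NR6A1 and at the outermost start of RORA (chr15:61521335-61521789). In the order D2 stiff, then D4 stiff, the fold enrichment was 8.53, 9.41, 8.13 and 8.80 at the NR6A1 site. It was 8.19, 8.34, 7.51 and 6.81 at the HNF4A site, 6.28, 5.67, 7.83 and 4.33 at the RARB site and 6.78, 3.68, 4.99 and 4.92 at the RORA site. These were weak peaks of their lists, the best at 44.5% (NR6A1, D2 stiff replicate 1) and the worst at 97.5% (RORA, D2 stiff replicate 2). Within D2, 17 sites (6.07%, background 7.45%) had a peak in both stiff and no soft library and 4 (1.43%, background 0.391%) the reverse, and within D4, 23 (8.21%, background 6.72%) and 1 (0.357%, background 1.31%). Between days on soft matrix, 9 sites (3.21%, background 5.79%) had a peak in both D4 and no D2 library and 3 (1.07%, background 0.403%) the reverse, and on stiff matrix 14 (5%, background 5.35%) and 5 (1.79%, background 1.41%). Over all libraries 1 site, in an ESR2 intron, had a peak in every D4 and no D2 library (0.357%, background 0.437%), with a fold enrichment of 4.99, 6.56, 7.15 and 7.91. The windows of the 3 intronic stiff-only sites are shown because, beside the RORA promoter, they are the members' only sites with that pattern.
RARB stiff-only site, chr3:25524963-25525163: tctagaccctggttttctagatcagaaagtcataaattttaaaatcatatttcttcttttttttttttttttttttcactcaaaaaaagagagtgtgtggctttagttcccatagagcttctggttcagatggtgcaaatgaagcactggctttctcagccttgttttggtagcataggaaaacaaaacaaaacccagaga
HNF4A stiff-only site, chr20:43027067-43027267: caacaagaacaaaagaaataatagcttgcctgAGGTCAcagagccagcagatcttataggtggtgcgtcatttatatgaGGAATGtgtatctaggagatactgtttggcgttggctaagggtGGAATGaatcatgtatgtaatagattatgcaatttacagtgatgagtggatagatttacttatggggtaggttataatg
NR6A1 stiff-only site, chr9:127515339-127515539: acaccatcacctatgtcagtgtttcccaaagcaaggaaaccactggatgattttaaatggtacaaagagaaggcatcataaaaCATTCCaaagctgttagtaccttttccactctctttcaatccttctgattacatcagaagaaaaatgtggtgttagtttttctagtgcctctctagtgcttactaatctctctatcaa
The HNF4A window held the half-site 68 bp before the summit and TEAD matches 21 bp before and 22 bp after it, and the NR6A1 window a TEAD match 17 bp before it. The RARB stiff-only window held none of the letters searched.

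**Figure D5:**
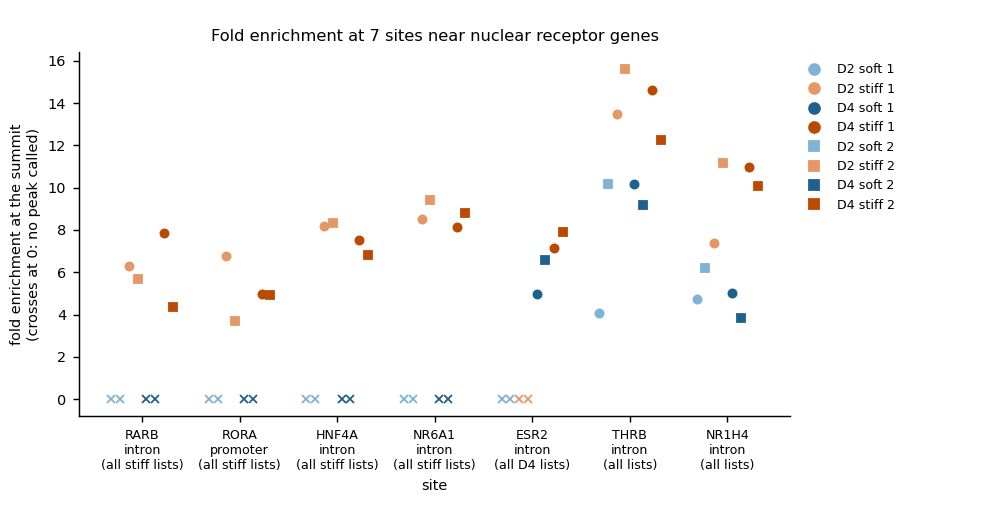
Fold enrichment (y axis) in each of the 8 libraries (colour for group, circle for replicate 1, square for replicate 2) at 7 sites near nuclear receptor genes (x axis); crosses at 0 mean that no peak was called. The first 4 sites have peaks only in stiff lists, the ESR2 site only in D4 lists, and at the THRB and NR1H4 sites the stiff points lie above the soft ones; values of different lists are not strictly comparable.

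D4 was compared with D2 by the same measures. The mean number of occupied promoters was 35.8 on D4 and 31 on D2, a difference of 4.75 that was 0.75 without D2 soft replicate 1. In 18 genes (39.1%, background 19.6%) the promoter was occupied in more D4 than D2 libraries and in 2 genes (4.35%, background 2.38%) in fewer. With lists of equal length it was 11 genes (23.9%, background 12.1%) and 3 genes (6.52%, background 8.57%). No gene was occupied in every D4 and no D2 library (background 0.0794%) or, with lists of equal length, in all of one day and none of the other (background 0.0298% each way). Peak numbers separated D4 from D2 for 0 of 45 genes (background 0.976%), and the D4 mean was higher for 38 (84.4%, background 66%) and lower for 3, THRB, RORB and HNF4G (6.67%, background 12.9%). With lists of equal length 0 genes separated the days (background 0.17% for more and 0.137% for fewer on D4), and the D4 mean was higher for 18 genes (40%, background 28.6%) and lower for 15 (33.3%, background 27.9%). Per 10000 peaks of the list the members held 36.3 peaks on D4 and 36.5 on D2. In the rank test 0 of 38 members passed the adjusted threshold, as did 0 of all genes (0%). At an unadjusted p under 0.05 there were 2 members (5.26%, background 5.26%), NR1I3 and ESRRB, the same share as among all genes.

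The best peak of ESRRB stood at 46.9%, 18.1%, 17.3% and 14.1% of the D2 lists and at 4.63%, 14.9%, 9.62% and 4.64% of the D4 lists. The percentages overlapped between days, while the rank scores among the tested genes, whose D2 maximum was 0.03 and whose D4 minimum was 0.05, did not. ESRRB was picked by its p for this comparison, and the share of all genes without such overlap was not counted. The difference was 0.64 ± 0.28 (SE; limma adjusted p = 0.895). NR1I3 differed by 0.65 ± 0.31 (SE; limma adjusted p = 0.895) and by 0.25 without D2 soft replicate 1, where its only peaks were weak. The strongest NR1I3 peak lay near a start of TOMM40L in most libraries. NR4A3 (-0.56 ± 0.28 SE), ESRRG (0.54 ± 0.28 SE) and HNF4G (-0.51 ± 0.30 SE) had the next largest differences, none past the threshold, and over libraries left out HNF4G ran from -0.79 to -0.14 (without D2 soft replicate 1). The sign of NR4A3 turned (0.0907) when fold enrichment was ranked in place of −log10 p. On soft matrix alone PPARA, NR1I3 and NR4A3 had an unadjusted p under 0.05 (7.89%, background 8.07%), on stiff matrix none did (background 5.22%), and none passed after adjustment, nor did any of all genes (0%). At single sites 8 of 82 (9.76%, background 5.77%) had an unadjusted p under 0.05 between days and 0 passed after adjustment, beside 0 of all sites (0%). The lowest p was that of a site in the untranslated region of ESR1 (chr6:152421074-152421789), which stood at 98.3%, 33.9%, 15.6% and 27.5% of the D2 and 9.08%, 12.1%, 11.2% and 18.6% of the D4 lists. Its difference was 1.18 ± 0.39 (SE; limma adjusted p = 0.802), and 1.74 without D2 soft replicate 2. That fit leaves D2 soft replicate 1, where the site stood at 98.3%, as the only D2 soft library.

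The other genes of the pathway were counted from lists chosen by name. Over all protein-coding genes, 47.5% had a promoter peak in every library and 26.8% in none. Of 14 coregulators, 10 had a promoter peak in every library, among them the corepressor NCOR1 and the coactivators NCOA1, NCOA2 and NCOA3, and 0 had none. Of 16 genes that take up, store or break down retinoids, 6 were occupied in every library, among them STRA6, the retinol importer, and ALDH1A2, which makes retinoic acid. LRAT, which esterifies retinol for storage in stellate cells, had a promoter peak in 1 library, and CRABP1, ALDH1A1 and ALDH1A3 were among those with none. Of 24 target genes of the receptors, 10 were occupied in every library, among them FKBP5 and PER1, glucocorticoid targets, and ABCA1, an LXR target, and 4 in none, among them FABP4, a PPARG target, and the estrogen targets TFF1 and GREB1. NFIL3, a clock repressor, and PLIN2, a lipid droplet gene, were occupied in all 4 stiff libraries and in 1 soft library each. Both were picked from the 24 for that pattern, and both lacked the peak in D2 soft replicate 1, the shortest list. The share of all genes with that pattern was not counted. By a looser measure, 21% of all genes were occupied in more stiff than soft libraries. In the rank test 0 of 12 coregulators, 0 of 9 retinoid genes and 0 of 14 target genes passed for stiff against soft or for D4 against D2. At an unadjusted p under 0.05, stiff against soft gave 1 target gene higher and 1 lower (7.04% of all genes in either direction), and D4 against D2 gave 1 coregulator lower (5.26% of all genes).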

How the data were processed

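ATAC-seq peak lists of 8 LX-2 libraries were analysed, 2 for each matrix and day. Groups and replicate numbers came from the titles. The submitters' processing notes name Trim Galore, Bowtie2 2.4.1, Picard, bedtools 2.24.0, MACS2 and the build hg19, and the authors deposited 1 peak list per library. The methods give a relaxed q threshold of 0.05 for the peak calls. Other caller options and read filters are not given in the sources used here. The deposited fold enrichment is a ratio over the caller's local background, the −log10 p and −log10 q columns deposited by the authors come from the same caller, and the deposited score was not used. The highest q in a list lay between 0.0483 and 0.0498. Reads were not used, so sequencing depth is unknown and no count model was fitted.

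Genes, starts and exons came from GENCODE 44 lifted to GRCh37, the same build, and all 46 member symbols matched. The members and lists were chosen with earlier results of these data known. Peaks within 10 kb of a gene body were counted, a promoter peak lay within 1 kb of any annotated start, and ranks within a list used −log10 p. For sites, peaks of the 8 lists were joined wherever they shared 1 bp or more. Normal scores of the ranks were fitted with limma 3.58.1 (4 group means, Benjamini-Hochberg adjustment over all features tested), and peak numbers per gene were compared with an exact two-sided permutation test, adjusted over 18239 genes. Named with values were the genes with a promoter peak in 1 to 7 libraries or none, the 8 with the best median rank, the 6 with most peaks, those whose peak numbers did not overlap, and the 5 with the largest difference in each rank comparison. The script was tested on simulated data. Each list was also tried cut to 29789 peaks, with a q up to 0.01, with other windows and overlaps, ranked by fold enrichment, with a replicate block and without each library in turn. A few items are not reported here.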

Additional observations from a re-analysis of the deposited data

Results flagged for a closer look

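Of 20 groups of 4 libraries examined for member peaks and promoters (soft, stiff, D2 and D4, each as deposited, with lists of equal length and, for peaks, per 10000), 1 held a library far from the others. Among the D2 libraries, D2 soft replicate 1 had a peak at 19 member promoters, and the other libraries had 34 to 36, a gap of 0.882 of the whole range. The limit used is Dixon's 95% critical value, which by its definition chance passes in about 1 of 20 groups. That list was also the shortest, with 29789 peaks, and the part of list length in the low count was not tested beyond cutting all lists to that length, where the count of the other libraries fell to between 21 and 25.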

How the results depend on the processing

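The values without a test moved with the length of the lists. The difference in member peaks between stiff and soft matrix was 54.5 as deposited, 7.5 with lists of equal length and 0.702 per 10000 peaks, and that between D4 and D2 was 42.5 as deposited and -0.236 per 10000 peaks. Leaving out each library in turn gave 26.9 to 67.6 peaks for stiff minus soft, 12.9 to 58.2 for D4 minus D2, 1.33 to 7 promoters for stiff minus soft and 0.75 to 6.42 for D4 minus D2, each lowest without D2 soft replicate 1. Member promoters occupied in every library numbered 18 to 29, the latter without D2 soft replicate 1. No member gene was called in either comparison in the 8 fits of all libraries or the 8 that leave out one, and the lowest adjusted p of a member was 0.140. Leaving out a library leaves 1 library in its group, and without D2 soft replicate 2 that was D2 soft replicate 1, the shortest list. Only in that fit did member sites pass the adjusted threshold, at THRB for stiff against soft and at ESR1 for D4 against D2. The cause was not tested. Of the refits of the genes named for their differences, 137 kept direction and side of the threshold and 2 reversed: NR3C2 (-0.55 to 0.0783 over libraries left out, the latter without D2 soft replicate 2, against -0.27) and NR4A3 (0.0907 with fold enrichment ranked, against -0.56). The cause was not tested. With the replicate number as a block, 0 member genes and 0 member sites were called in either comparison. Deviations of same-numbered libraries correlated between -0.03 and 0.13 over the genes, so the rank scores showed little that was shared by replicate number. Such values cannot show whether the libraries were prepared in pairs, and the labels do not say. Peaks of the span of the canonical transcript, an alternative chosen after seeing the data, gave 46.5 more on stiff and 34.5 more on D4. The files give no read depth, and a site without a peak may lie just under the threshold.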
